A study of Drosophila melanogaster with 16 samples.

Results

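The transcriptomes of 4 single dystrophin knockdown flies (CH-dmDys, replicates 5, 6, 7 and 8) were set against those of 4 single wild type flies (CH-WT, replicates 3, 5, 6 and 7) after chronic hypoxia (CH), 8 of the 16 whole-fly arrays of the study. The flies were chosen by the titles of the samples, and all 18907 probe sets of the Affymetrix Drosophila Genome 2.0 array other than 45 hybridization controls were compared. CH-dmDys flies carried UASdmDysC-term, an RNA interference construct against all forms of dystrophin, under P-tub-Gal4, a driver active in nearly all tissues, so the knockdown was not restricted to muscle. CH-WT flies carried the P-tub-Gal4 driver alone. The labels give adults of 3 to 5 days of age and an exposure of 2 weeks for both groups. CH-dmDys flies were taken up a mountain during a 16-day climb to 6194 m (hypobaric hypoxia), and CH-WT flies were kept in a chamber that followed the same oxygen levels at sea-level pressure (normobaric hypoxia). Genotype, kind of hypoxia and travel therefore differed together, as did the scale of the deposited values given below, and their parts in any difference cannot be told apart. The other 8 arrays, 4 normoxic dmDys and 4 normoxic WT flies in normal air, show which differences were present without hypoxia.

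Dystrophin is a large protein under the cell membrane that, with dystroglycan and the sarcoglycans, ties the actin cytoskeleton of muscle and nerve cells to the matrix outside. Its loss in humans gives Duchenne muscular dystrophy, and in flies reduced dystrophin gives muscle that degenerates with age. Insects meet low oxygen with the transcription factor sima, the fly form of HIF, and with heat shock proteins, chaperones that bind unfolded proteins and whose genes are among the most inducible known. Since each array holds a whole fly, a lower level of a transcript can come from fewer cells of a type or from less RNA in each cell, and these cannot be told apart.

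Levels below are log2 intensity after quantile normalization over all 16 arrays, and a difference is always CH-dmDys minus CH-WT on this log2 scale. A probe set was called higher or lower in CH-dmDys flies at a Benjamini-Hochberg adjusted p under 0.05 from limma and a difference of at least 1 in size, which is a doubling. Levels near 2.1 are the floor of the arrays, and a difference against a group at the floor depends on where that floor lies. CH-WT replicate 7 stood apart from all other flies under CH. The squared correlation between arrays was 0.984 to 0.992 among CH-dmDys flies and 0.952 to 0.963 among CH-WT replicates 3, 5 and 6, but 0.558 to 0.645 between CH-WT replicate 7 and these 3. The median level of 38 testis genes was 13 to 13.2 in CH-dmDys flies, 12.84, 13.15 and 13.21 in CH-WT replicates 3, 5 and 6, and 2.21 in CH-WT replicate 7. Its 21 male accessory gland genes, with a median of 14.17, lay within the CH-WT range of 13.7 to 14.4. The 24 egg and yolk genes had medians of 2.12 to 2.13 in all 8 flies. CH-WT replicate 6 differed from the other CH-WT flies in cuticle and storage transcripts, as given with those results. The labels call CH-WT replicate 3 dmDys in 1 field, and it was kept as WT by its title. The levels of PPO1 and bw in this fly, given below, lay with those of the other CH-WT flies. Both genes were called with this fly counted as CH-WT, so their levels cannot settle its genotype. In the labels, the sample id of CH-WT replicate 5 gives the number 3, and CH-dmDys replicate 5 has no strain label. Both were also placed by their titles. RNA quality differed as well. The level at the 3' end minus that at the 5' end, averaged over Gapdh, eIF-4a and Act5C, is larger where transcripts are degraded or copied in part, and it was 3.85 ± 0.58 in CH-dmDys and 6.36 ± 1.03 in CH-WT flies (SD, n = 4 each). A two-sided exact permutation test gave p = 0.029, which no split of 4 against 4 flies can go below, and 0.039 after adjustment over 4 such tests. Its part in single differences below was not tested.

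The dystrophin gene Dys had a lower mean in CH-dmDys flies in its brightest probe set, but no call. This probe set had levels of 8.52, 7.65, 7.99 and 7.92 in CH-dmDys flies, against 8.96, 8.46, 8.91 and 9.89 in CH-WT flies, with groups that overlapped slightly (log2 difference -1.03, standard error 0.34, adjusted p = 0.0781). A dimmer Dys probe set lay just above the floor and was higher, at 3.35, 3.97, 3.45 and 3.91 in CH-dmDys flies, against 2.14, 2.23, 2.12 and 2.46 in CH-WT flies (log2 difference 1.43, standard error 0.17, adjusted p = 0.00259), and 3 others lay at the floor in all 8 flies. A probe set outside the stretch that the construct targets need not follow the knockdown. Of 11 genes in a list of the dystrophin complex and related genes 4 were called lower and 0 higher, with a median difference of -1.03. On the deposited values, without quantile normalization, the median was -0.11 and 2 were called lower. Among the 4, only Scgbeta and Scgalpha encode parts of the complex, and Pgant1 and sqa do not. The sarcoglycan gene Scgbeta had 3.51, 3.64, 3.60 and 3.38 in CH-dmDys flies, against 5.95, 5.99, 5.98 and 7.82 in CH-WT flies (log2 difference -2.90, standard error 0.45, adjusted p = 0.00647), with no overlap and a call in each of 8 fits that left out 1 fly. Scgalpha, a second sarcoglycan, was lower (log2 difference -2.53, adjusted p = 0.0435), and was called in 1 of 8 such fits, that without CH-WT replicate 7. Pgant1, which starts O-linked sugar chains, was lower (log2 difference -1.69, adjusted p = 0.0189), as was the kinase gene sqa (-1.10, adjusted p = 0.0458). They were called in 3 of 8 and 1 of 8 fits that left out a fly. On the deposited values sqa had a difference of 0.04, of the opposite sign. In normal air Scgbeta had levels of 3.78 ± 0.47 in normoxic dmDys and 6.38 ± 0.80 in normoxic WT flies (SD, n = 4 each), where it was called lower as well.

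Transcript levels differed widely between CH-dmDys and CH-WT flies. Of 18907 probe sets, 853 (4.51%) were called higher and 1465 (7.75%) lower in CH-dmDys flies, which belong to 748 and 1291 named genes. At an unadjusted p under 0.05 there were 6604. In 48.7% of all probe sets every CH-dmDys fly lay on the same side of every CH-WT fly. This share includes probe sets at the floor, where groups can stand apart by very small amounts, and 2303 of them were also called. In each array 51.4% of probe sets lay under a log2 of 4. The balance between higher and lower calls depended on the normalization. With quantile normalization 36.8% of calls were higher, whereas on the deposited values 3270 probe sets were higher and 932 lower, so that 77.8% of calls were higher. The upper quartile of the deposited log2 values was 10.26 to 10.27 in CH-dmDys and 8.98 to 9.09 in CH-WT flies, and the median difference of the probe sets brighter than the median was 0.02 after quantile normalization and 1.04 before it. All 853 higher calls were also made on the deposited values, and 726 of the 1465 lower calls. The reverse held when each deposited array was centred on the median of its brighter probe sets. All 1465 lower calls were made there, and 720 of the 853 higher calls. The deposited scale thus favoured higher calls and centring favoured lower calls. Over the named genes, with the brightest probe set of each, 5.93% of 11982 were called higher and 10.4% lower, with a median difference of -0.00225. The counts of the gene lists below stand beside these shares. On the deposited values the shares were 22.7% higher and 6.45% lower, and without CH-WT replicate 7 they were 12.3% and 12.2%. On centred arrays 786 of the genes were called higher and 5266 lower.

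Of the 39 gene lists, that of inducible heat shock genes had the largest share of lower members, 85.7%. This list counts every probe set of its genes, with several for the Hsp70B copies, whereas the other lists hold 1 probe set a gene. Over all probe sets 7.75% were called lower. Of 14 probe sets of inducible heat shock genes 12 were called lower and 0 higher in CH-dmDys flies, with a median difference of -2.42, and the count lay between 11 and 12 when any 1 fly was left out. On the deposited values 9 were called lower and 0 higher. The widest differences were in the Hsp70 genes, the chaperones that flies make in bulk after heat. The brightest probe set shared by the Hsp70B copies had levels of 2.77, 3.11, 3.46 and 3.85 in CH-dmDys flies, against 13.21, 12.79, 13.03 and 13.44 in CH-WT flies (log2 difference -9.82, standard error 0.26, adjusted p = 2.65e-05). The set shared by Hsp70Aa and Hsp70Ab had 3.32, 3.78, 2.76 and 4.00 in CH-dmDys flies, against 13.23, 12.62, 13.12 and 13.30 in CH-WT flies (log2 difference -9.60, standard error 0.31, adjusted p = 3.63e-05). In both, the CH-dmDys flies lay a little above the floor and the CH-WT flies near the top of the range of the array. The Hsp70 genes are near-identical copies, so a probe set cannot say which copy the signal came from.

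The other inducible heat shock genes moved in the same direction with smaller differences. Hsp68, a further member of the Hsp70 family, had 8.86, 9.16, 8.78 and 8.98 in CH-dmDys flies, against 12.35, 12.22, 12.16 and 12.80 in CH-WT flies (log2 difference -3.43, standard error 0.16, adjusted p = 9.95e-05). Among the small heat shock proteins, which hold unfolded proteins in solution, Hsp26 had 10.10, 10.17, 9.85 and 10.33 in CH-dmDys flies, against 12.68, 12.39, 13.12 and 12.75 in CH-WT flies (log2 difference -2.63, standard error 0.17, adjusted p = 0.000345) and Hsp27 was lower (log2 difference -2.17, adjusted p = 0.000198). None of these 3 genes had overlapping groups. The probe set of Hsp23, named from the study's own tables, was lower (log2 difference -2.24, adjusted p = 0.000338), as were a set shared by Hsp22 and CG4456 (-2.60, adjusted p = 6.21e-05) and that of Hsp67Bc (-5.82, adjusted p = 0.00129), near the floor in CH-dmDys flies. The probe sets without a call were a second set shared by Hsp22 and CG4456 (-1.19, adjusted p = 0.0562) and a second set shared by the Hsp70B copies (-0.83, adjusted p = 0.327). The co-chaperones DnaJ-1 (-1.55, adjusted p = 0.000515) and stv (-1.40, adjusted p = 0.00331), a partner of Hsp70 in the clearance of damaged muscle proteins, were lower too, although their differences on the deposited values were -0.73 and -0.43, under the threshold. The heat-inducible RNA of the alpha-gamma element (lncRNA:alphagamma-element:CR32865), transcribed beside Hsp70 copies, had 6.63, 6.66, 6.78 and 6.48 in CH-dmDys flies, against 12.75, 11.14, 12.26 and 12.76 in CH-WT flies (log2 difference -5.59, standard error 0.38, adjusted p = 0.000366).

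The heat shock difference had the opposite sign in normal air. In normoxic flies 10 of the 14 probe sets were called higher in dmDys than in WT flies, 0 lower, with a median difference of 2.32. The Hsp70B set averaged 14.60 ± 0.21 in normoxic dmDys and 9.51 ± 0.58 in normoxic WT flies, Hsp68 13.88 ± 0.088 in normoxic dmDys and 10.17 ± 0.20 in normoxic WT flies, and Hsp26 14.05 ± 0.073 in normoxic dmDys and 10.37 ± 0.15 in normoxic WT flies (SD, n = 4 each). Thus, of the 4 groups, CH-dmDys flies had the lowest and normoxic dmDys flies the highest mean level of all 3, with CH-WT above normoxic WT between them. The genotype difference under CH minus that in normoxia was called for 11 of 14 probe sets, and it was -14.91, standard error 0.40, adjusted p = 5.96e-10 for the Hsp70B set and -7.14, standard error 0.20, adjusted p = 5.96e-10 for Hsp68. The 3' minus 5' level, which was lowest in CH-dmDys flies, was 5.83 to 9.56 in normoxic dmDys and 6.89 to 7.43 in normoxic WT flies. Normoxic dmDys replicate 8, with the lowest of these values, had 13.87 for Hsp68 and 14.70 for the Hsp70B set, within the range of its group. Its 3' minus 5' level of 5.83 still lay above those of all CH-dmDys flies, 3.37 to 4.69. The part of RNA quality in the heat shock differences was not tested.

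**Figure D1:**
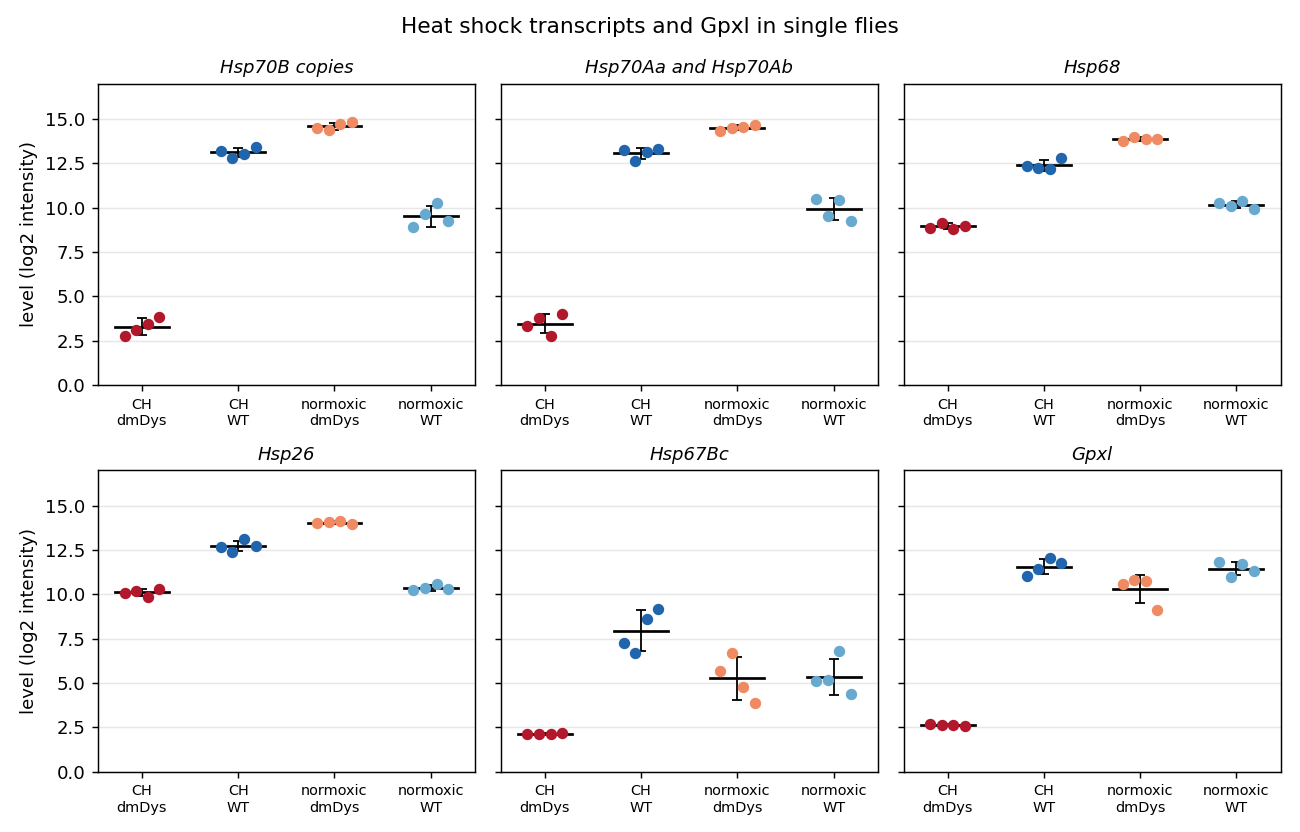
Levels of 5 heat shock probe sets and of Gpxl in single flies, in log2 intensity, for CH-dmDys, CH-WT, normoxic dmDys and normoxic WT flies (4 each); each point is a fly, lines are means and bars are SD. Hsp70, Hsp68 and Hsp26 were lowest in CH-dmDys and highest in normoxic dmDys flies, and Gpxl was near the floor only in CH-dmDys flies.

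Constitutive chaperones differed less. Of 27 other chaperone genes 5 were called lower and 0 higher, with a median difference of -0.25, and on the deposited values 1 was lower and 7 higher. CCT2, a subunit of the ring that folds actin and tubulin, had 9.82, 9.50, 9.50 and 9.52 in CH-dmDys flies, against 12.42, 11.73, 12.19 and 12.36 in CH-WT flies (log2 difference -2.59, standard error 0.17, adjusted p = 0.000338) and was lower on both scales. CCT7, CCT4 and Stip1, a co-chaperone that joins Hsp70 and Hsp90, were lower (log2 differences -1.25, -1.19 and -1.22), but the differences on the deposited values were -0.06, -0.01 and -0.27.

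Genes of glutathione and peroxide metabolism split in both directions. The largest difference was in Gpxl, a glutathione peroxidase-like gene, at 2.68, 2.65, 2.64 and 2.57 in CH-dmDys flies, against 11.03, 11.44, 12.06 and 11.77 in CH-WT flies (log2 difference -8.94, standard error 0.22, adjusted p = 2.32e-05). Normoxic flies of both genotypes had the gene at a high level, 10.32 ± 0.81 in normoxic dmDys and 11.46 ± 0.38 in normoxic WT flies (SD, n = 4 each), and the genotype difference under CH minus that in normoxia was -7.79, standard error 0.49, adjusted p = 1.76e-06. Of 14 antioxidant genes in a list without Gpxl 2 were higher and 1 lower. Gclm, the modifier subunit of the enzyme that starts glutathione synthesis, was lower (-3.87, adjusted p = 0.00904), while catalase (Cat), which breaks down hydrogen peroxide, had 12.87 ± 0.12 in CH-dmDys and 10.73 ± 0.56 in CH-WT flies (log2 difference 2.14, standard error 0.28, adjusted p = 0.00353). Of 34 glutathione S-transferase genes, whose products attach glutathione to toxic compounds, 5 were higher and 2 lower. The number higher was from 3 to 9 when 1 fly was left out, highest without CH-WT replicate 7, and 14 on the deposited values. GstD2 had 10.53, 8.23, 6.24 and 6.61 in CH-dmDys flies, against 2.23, 2.26, 2.31 and 2.59 in CH-WT flies (log2 difference 5.55, standard error 0.95, adjusted p = 0.00906), and GstE14 was at the floor in CH-dmDys flies, with 2.60, 2.31, 2.31 and 2.51 in CH-dmDys flies, against 9.18, 7.42, 6.36 and 10.06 in CH-WT flies (log2 difference -5.82, standard error 0.82, adjusted p = 0.00446). The groups overlapped in neither.

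Cytochrome P450 genes, which oxidise hormones and foreign compounds, had 12 higher and 3 lower members among 83, that is 14.5% higher. Without CH-WT replicate 7 the counts were 26 and 5, and without CH-dmDys replicate 6 there were 4 higher and 1 lower. The deposited values gave 35 higher and 2 lower. Cyp4g15 had 8.79, 9.69, 9.71 and 9.64 in CH-dmDys flies, against 3.74, 3.74, 3.20 and 7.17 in CH-WT flies (log2 difference 5.00, standard error 0.92, adjusted p = 0.0114), in which CH-WT replicate 7 was the highest CH-WT fly by a wide gap. Cyp4d21 was higher (log2 difference 4.08, adjusted p = 0.00947). Cyp12c1 was the largest lower member, at -4.45, adjusted p = 0.0152, with a call in 6 of 8 fits that left out a fly (adjusted p up to 0.0524, without CH-dmDys replicate 6 or 7). Of 5 metallothionein genes, which bind copper and zinc, MtnB and MtnC were lower (log2 differences -4.96, adjusted p = 0.024, and -1.43, adjusted p = 0.0368); they were called in 4 of 8 and 2 of 8 omissions.

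Many of the widest differences lay in genes of the cuticle and its chitin. Several of the lower ones were at or near the floor in all CH-dmDys flies and high in 3 of 4 CH-WT flies. The chitin synthase gene krotzkopf verkehrt (kkv) had 2.44, 2.39, 2.44 and 2.46 in CH-dmDys flies, against 13.20, 11.67, 6.42 and 12.71 in CH-WT flies (log2 difference -8.56, standard error 1.52, adjusted p = 0.0102). Vajk3 had 2.10, 2.13, 2.10 and 2.13 in CH-dmDys flies, against 14.30, 13.11, 5.98 and 13.96 in CH-WT flies (log2 difference -9.72, standard error 1.92, adjusted p = 0.0148), and CG7214 had 2.54, 2.33, 2.14 and 2.14 in CH-dmDys flies, against 13.72, 12.80, 8.74 and 13.70 in CH-WT flies (log2 difference -9.95, standard error 1.16, adjusted p = 0.00237). In each of these, CH-WT replicate 6 was the lowest CH-WT fly and still above all CH-dmDys flies. The cuticle protein gene Cpr62Bc had 2.18, 2.16, 2.16 and 2.16 in CH-dmDys flies, against 14.54, 13.81, 4.38 and 14.04 in CH-WT flies (log2 difference -9.53, standard error 2.37, adjusted p = 0.0325). Its call was made in 2 of 8 omissions, those of CH-WT replicate 6 and CH-WT replicate 7, with adjusted p up to 0.0888 in the others, and the same was true of Vajk2 (-9.15), serp (-6.98), a chitin deacetylase gene, and CG13676 (-6.91). Cpr100A was lower (log2 difference -7.50, adjusted p = 0.0166) and was called in 6 of 8 omissions.

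The same transcripts were low in dmDys and high in WT flies in normal air. kkv averaged 3.93 ± 0.84 in normoxic dmDys and 11.08 ± 0.99 in normoxic WT flies, Vajk3 2.43 ± 0.33 in normoxic dmDys and 12.45 ± 0.97 in normoxic WT flies and Cpr62Bc 2.15 ± 0.012 in normoxic dmDys and 12.38 ± 1.21 in normoxic WT flies (SD, n = 4 each), and the change of the genotype difference between normoxia and CH was not called for any of the 3 (adjusted p = 1 each). Over 101 measured cuticle protein genes 4 (3.96%) were higher and 8 (7.92%) lower, below 5.93% and 10.4% over all genes. Without CH-WT replicate 6 the number lower was 16, and without CH-dmDys replicate 6 it was 2. TwdlT and TwdlG, of the Tweedle family of cuticle proteins, had no such outlying fly, with 3.65, 3.05, 3.26 and 3.02 in CH-dmDys and 9.13, 7.43, 7.22 and 8.90 in CH-WT flies for TwdlT and 4.74, 4.09, 4.88 and 4.40 in CH-dmDys and 8.98, 8.59, 8.66 and 10.31 in CH-WT flies for TwdlG (differences -4.92, adjusted p = 0.00149 and -4.61, adjusted p = 0.00109). Tyrosine hydroxylase (ple), which makes the precursor of dopamine and of cuticle pigment, had 2.18, 2.33, 2.34 and 2.33 in CH-dmDys flies, against 7.01, 6.55, 6.08 and 9.42 in CH-WT flies (log2 difference -4.97, standard error 0.72, adjusted p = 0.00509).

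Some cuticle and chitin genes went the other way. Of 18 genes of chitinases, their relatives and chitin synthases, 7 were higher and 3 lower, that is 38.9% higher. Leaving out 1 fly gave from 4 (without CH-dmDys replicate 8) to 10 (without CH-WT replicate 7) higher and from 1 to 3 lower, and the deposited values gave 10 higher and 4 lower. The chitinase genes Cht9 and Cht4 had high levels in all CH-dmDys flies and low levels in all CH-WT flies. Cht9 had 10.08, 10.89, 10.42 and 10.64 in CH-dmDys flies, against 2.13, 2.13, 3.38 and 2.13 in CH-WT flies (log2 difference 8.06, standard error 0.35, adjusted p = 7.72e-05), and Cht4 had 8.96, 9.65, 9.30 and 9.77 in CH-dmDys flies, against 2.15, 2.18, 2.31 and 4.12 in CH-WT flies (log2 difference 6.73, standard error 0.50, adjusted p = 0.000515). Cht8 was higher (log2 difference 2.09, adjusted p = 0.00883). The imaginal disc growth factors Idgf1, Idgf2, Idgf3 and Idgf4, which share the fold of chitinases without cutting chitin, were higher (log2 differences 2.44, 1.89, 1.35 and 1.09), and only Idgf3 was called in all 8 omissions. Cht7, a chitinase gene of the cuticle, was lower, with 2.11, 2.12, 2.12 and 2.12 in CH-dmDys flies, against 12.24, 11.28, 3.77 and 12.53 in CH-WT flies (log2 difference -7.84, standard error 2.02, adjusted p = 0.0362), and was called in 1 of 8 omissions, that of CH-WT replicate 6. In normal air Cht9 and Cht4 had low levels in both genotypes. They averaged 3.73 ± 0.30 in normoxic dmDys and 2.27 ± 0.29 in normoxic WT flies for Cht9 and 3.86 ± 0.20 in normoxic dmDys and 2.94 ± 1.41 in normoxic WT flies for Cht4 (SD, n = 4 each), and the genotype difference under CH exceeded that in normoxia by 6.61, standard error 0.41, adjusted p = 1.52e-06 for Cht9 and 5.81, standard error 0.86, adjusted p = 0.00724 for Cht4.

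**Figure D2:**
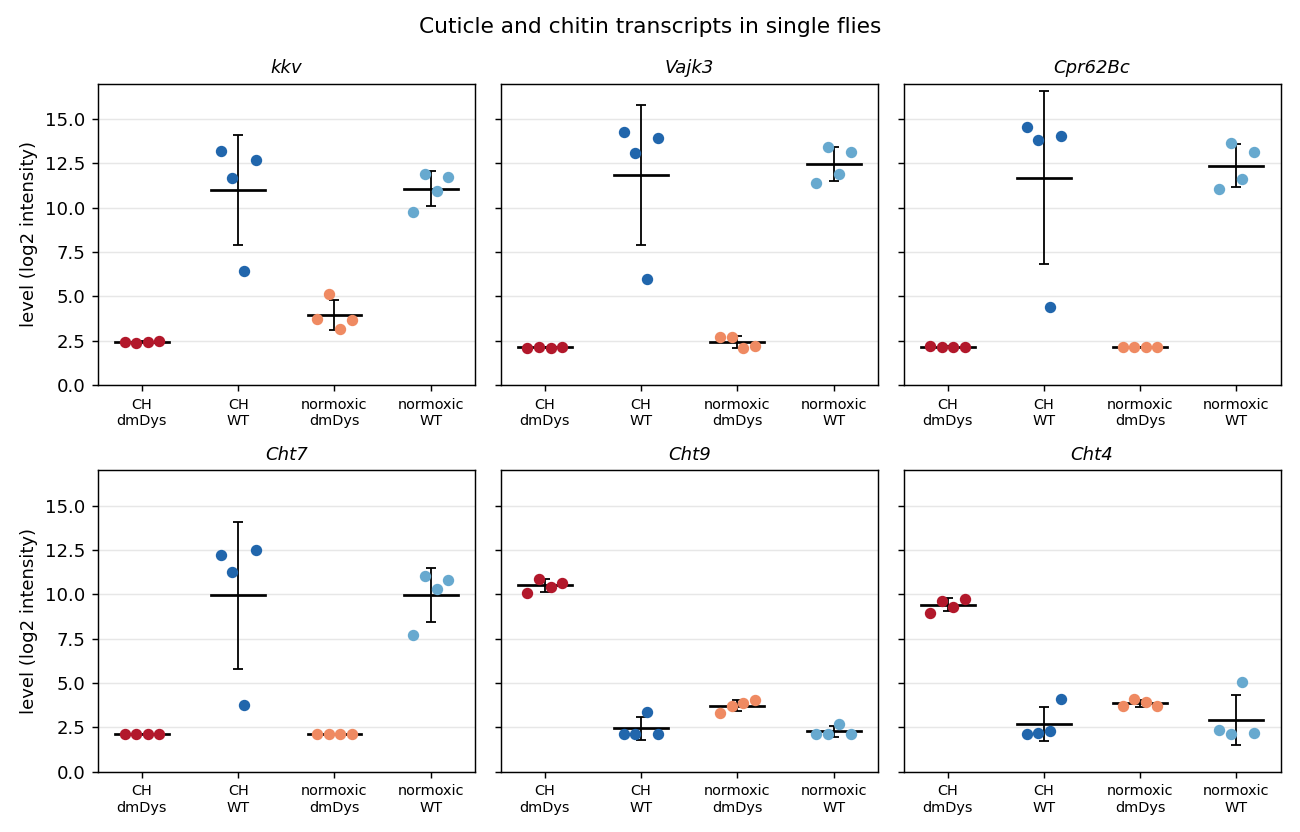
Levels of 6 cuticle and chitin genes in single flies, in log2 intensity, for the 4 groups (4 flies each); points are flies, lines are means and bars are SD. kkv, Vajk3, Cpr62Bc and Cht7 were low in all dmDys flies and high in WT flies apart from CH-WT replicate 6, and Cht9 and Cht4 were high only in CH-dmDys flies.

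Among all named genes, several of the largest higher calls were in genes of unknown role. CG15043 had 12.06, 12.44, 12.39 and 12.73 in CH-dmDys flies, against 2.28, 2.48, 2.87 and 3.93 in CH-WT flies (log2 difference 9.51, standard error 0.38, adjusted p = 6.21e-05). CG11854 had 10.68, 11.77, 12.23 and 11.70 in CH-dmDys flies, against 2.11, 2.33, 2.42 and 2.94 in CH-WT flies (log2 difference 9.14, standard error 0.36, adjusted p = 6.21e-05), and CG31205, which resembles a serine protease, had 10.57, 10.47, 9.70 and 10.95 in CH-dmDys flies, against 2.14, 2.13, 2.14 and 2.14 in CH-WT flies (log2 difference 8.28, standard error 0.26, adjusted p = 3.63e-05). Acbp6, of the family that binds acyl-CoA, had 11.69, 12.19, 12.06 and 11.15 in CH-dmDys flies, against 3.68, 5.31, 5.10 and 5.57 in CH-WT flies (log2 difference 6.86, standard error 0.47, adjusted p = 0.000388). All 4 were called in each omission. In normal air CG11854 and CG31205 were also called higher in dmDys flies (normoxic dmDys minus normoxic WT 3.83 and 5.84). CG15043 (0.77) and Acbp6 (-0.53) had no call there. The others among the 12 largest were CG15358 (8.09), Cht9, CG14499 (7.98), Gnmt, CG15531 (7.67), Akh, Cpr67Fb (7.17) and cDIP (7.15). CG14499 was called in 1 of 8 omissions, that of CH-WT replicate 7, and Cpr67Fb, which CH-WT replicate 6 also had at a high level of 10.54, in 2 of 8.

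Peptide hormones that set blood sugar and fat stores moved in opposite directions. Adipokinetic hormone (Akh), which mobilises fat and sugar when food or energy is short, had 9.54, 11.25, 11.70 and 11.28 in CH-dmDys flies, against 2.16, 2.70, 2.80 and 5.66 in CH-WT flies (log2 difference 7.61, standard error 0.90, adjusted p = 0.00248). The insulin-like peptide genes Ilp2 and Ilp5, made by the insulin-producing cells of the brain, were lower. Ilp2 had 4.66, 4.26, 4.10 and 4.04 in CH-dmDys flies, against 9.19, 9.26, 9.84 and 10.91 in CH-WT flies (log2 difference -5.53, standard error 0.41, adjusted p = 0.000516), and Ilp5 had 2.57, 2.77, 2.61 and 2.64 in CH-dmDys flies, against 7.46, 8.34, 6.43 and 9.59 in CH-WT flies (log2 difference -5.31, standard error 0.65, adjusted p = 0.00285). In all 3 genes the groups did not overlap and the call held in each omission; of the list of 10 insulin-like peptide and adipokinetic hormone genes 1 was higher and 2 lower. In normal air Akh was also higher in dmDys flies, at 10.38 ± 0.30 in normoxic dmDys and 4.76 ± 2.68 in normoxic WT flies, whereas Ilp5 was near the floor in both genotypes, at 2.94 ± 1.03 in normoxic dmDys and 2.93 ± 0.55 in normoxic WT flies (SD, n = 4 each). The genotype difference under CH minus that in normoxia was -5.32, standard error 0.88, adjusted p = 0.0132 for Ilp5. For Ilp2 it was -2.99, adjusted p = 0.395, which did not pass.

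A pair of neuropeptide genes of the brain were lower. SIFa, which encodes SIFamide, a peptide of few brain neurons, had 2.30, 2.27, 2.31 and 2.23 in CH-dmDys flies, against 11.05, 10.13, 7.28 and 11.08 in CH-WT flies (log2 difference -7.61, standard error 0.87, adjusted p = 0.00225), and Pdf, the signal of the clock neurons, had 2.53, 2.44, 2.55 and 2.47 in CH-dmDys flies, against 5.52, 5.86, 6.24 and 7.62 in CH-WT flies (log2 difference -3.81, standard error 0.45, adjusted p = 0.00246). Of 10 clock genes 4 were lower and 0 higher. After Pdf came tim, which with per closes the daily feedback loop (-1.78, adjusted p = 0.00166), Pdp1 (-1.28, adjusted p = 0.00961) and dco, a kinase that acts on per (-1.24, adjusted p = 0.0367, called in 2 of 8 omissions). On the deposited values only Pdf was called lower and 4 of the 10 higher, with differences of -0.84 for tim, -0.10 for Pdp1 and -0.10 for dco. The hour at which the flies were taken is not given in the sources used here, and its part in the clock levels was not tested.

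Of 14 blood cell genes 2 (14.3%) were higher and 0 lower. Hemolectin (Hml), a clotting protein of the circulating blood cells, had 9.79, 10.62, 9.55 and 10.14 in CH-dmDys flies, against 2.11, 3.08, 2.31 and 7.17 in CH-WT flies (log2 difference 6.36, standard error 1.18, adjusted p = 0.0118), with CH-WT replicate 7 far above the other CH-WT flies. The prophenoloxidase gene PPO1, whose enzyme blackens wounds, had 8.01, 7.36, 7.34 and 7.59 in CH-dmDys flies, against 2.13, 2.13, 2.13 and 2.14 in CH-WT flies (log2 difference 5.44, standard error 0.15, adjusted p = 2.89e-05), so that every CH-WT fly lay at the floor. Both were also higher in dmDys flies in normal air, where Hml averaged 9.75 ± 0.80 in normoxic dmDys and 3.76 ± 0.42 in normoxic WT flies and PPO1 7.84 ± 1.52 in normoxic dmDys and 2.14 ± 0.00076 in normoxic WT flies (SD, n = 4 each). The median level of all 14 blood cell genes was 7.3 to 7.72 in CH-dmDys and 3.56 to 7.94 in CH-WT flies, so the groups overlapped through CH-WT replicate 7, and without that fly 5 were higher and 1 lower.

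**Figure D3:**
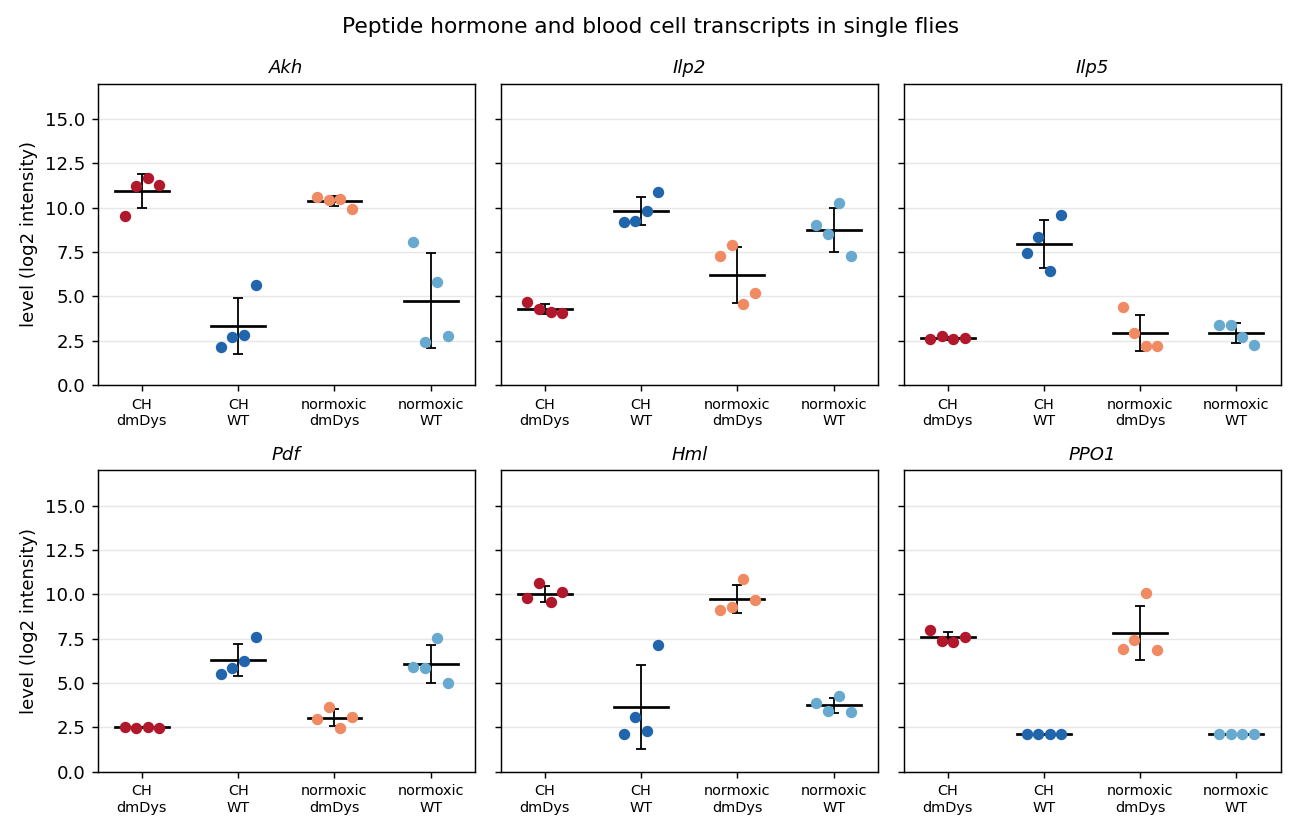
Levels of 4 peptide hormone genes and 2 blood cell genes in single flies, in log2 intensity, for the 4 groups (4 flies each); points are flies, lines are means and bars are SD. Akh, Hml and PPO1 were higher and Ilp2, Ilp5 and Pdf lower in CH-dmDys than in CH-WT flies, and Ilp5 was high only in CH-WT flies.

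Of 13 antimicrobial peptide genes 3 were higher and 0 lower, with a median difference of 1.42. Drsl2, of the Drosomycin family of antifungal peptides, had 6.81, 7.14, 6.15 and 4.48 in CH-dmDys flies, against 2.28, 2.22, 2.17 and 2.21 in CH-WT flies (log2 difference 3.93, standard error 0.58, adjusted p = 0.00521) and kept its call in each omission. Mtk had 12.02, 12.62, 12.54 and 10.61 in CH-dmDys flies, against 2.83, 5.18, 6.32 and 10.27 in CH-WT flies (log2 difference 5.80, standard error 1.58, adjusted p = 0.0428), in which CH-WT replicate 7 reached nearly the CH-dmDys range, and Listericin was higher (log2 difference 5.77, adjusted p = 0.0244); they were called in 1 of 8 and 3 of 8 omissions. Without CH-WT replicate 7 the number higher was 6. GNBP3, a sensor of fungal cell walls, had 9.22 ± 0.27 in CH-dmDys and 4.34 ± 1.79 in CH-WT flies (SD, n = 4 each, log2 difference 4.89, standard error 0.88, adjusted p = 0.0106), and Frost (Fst), known for its rise after cold, had 9.40, 10.89, 8.50 and 11.81 in CH-dmDys flies, against 2.10, 2.40, 4.07 and 6.49 in CH-WT flies (log2 difference 6.38, standard error 1.22, adjusted p = 0.0131). The lysozyme genes split, with LysX higher (5.87, adjusted p = 0.0415, called in 1 of 8 omissions) and LysP lower (-3.98, adjusted p = 0.00391). Of 36 gut protease, maltase and amylase genes 1 was higher (Mal-B2, 2.64, adjusted p = 0.00811) and 1 lower (zetaTry, -5.55, adjusted p = 0.00394).

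Enzymes of amino acid metabolism held large differences in a few members, with 3 of 31 genes higher and 3 lower, against 11 and 2 on the deposited values and from 3 to 6 and 1 to 5 when 1 fly was left out. Glycine N-methyltransferase (Gnmt), which uses up S-adenosylmethionine, had 13.18, 13.11, 13.02 and 13.54 in CH-dmDys flies, against 2.66, 6.11, 4.83 and 8.12 in CH-WT flies (log2 difference 7.78, standard error 1.12, adjusted p = 0.00484). Ahcy and Cth, of the same sulfur pathway, were higher (log2 differences 1.69, adjusted p = 0.00173, and 1.79, adjusted p = 0.00665). Cbs, also of this list, was not called, with differences from -1.18 to -0.281 when 1 fly was left out. Tyrosine aminotransferase (Tat), the first step of tyrosine breakdown, had 13.13, 13.20, 12.89 and 13.52 in CH-dmDys flies, against 7.50, 7.62, 8.20 and 10.17 in CH-WT flies (log2 difference 4.81, standard error 0.61, adjusted p = 0.00326). Ornithine aminotransferase (Oat) was lower (log2 difference -4.79, adjusted p = 0.0187), with a call in 5 of 8 omissions. Gnmt was higher in dmDys flies in normal air too, at 9.60 ± 0.76 in normoxic dmDys and 3.29 ± 0.43 in normoxic WT flies, while Tat was at 8.30 ± 0.68 in normoxic dmDys and 7.08 ± 1.00 in normoxic WT flies (SD, n = 4 each).

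Genes of oxygen sensing and energy metabolism had few calls. Of 18 hypoxia response genes 1 was higher and 3 lower. Pvf1, a growth factor gene, had 7.78, 7.35, 8.91 and 7.74 in CH-dmDys flies, against 4.40, 4.28, 4.44 and 6.38 in CH-WT flies (log2 difference 3.07, standard error 0.59, adjusted p = 0.0133). Vhl, which marks sima for destruction, had 8.11, 7.33, 7.71 and 7.77 in CH-dmDys flies, against 9.92, 8.88, 9.99 and 10.85 in CH-WT flies (log2 difference -2.18, standard error 0.42, adjusted p = 0.0138), and the repressor gene hry and the tracheal growth factor gene bnl, called in 2 of 8 and 3 of 8 omissions, were lower (log2 differences -1.35, adjusted p = 0.0204, and -1.21, adjusted p = 0.0302). On the deposited values the differences of Vhl, hry and bnl were -1.06, -0.33 and -0.15, and none was called. Hexokinase A (Hex-A), at the entry of glycolysis, was higher (1.27, adjusted p = 0.0146, called in 5 of 8 omissions) and Gpdh1 lower (-1.18, adjusted p = 0.0027), with no call among the other 12 of 14 glycolysis genes. Gpdh1 had -0.32 and no call on the deposited values, where 3 glycolysis genes were higher and 0 lower. In the TCA cycle 1 of 13 genes was lower, ScsbetaG, at 7.59, 7.65, 7.70 and 7.70 in CH-dmDys flies, against 9.96, 10.01, 9.86 and 9.95 in CH-WT flies (log2 difference -2.28, standard error 0.04, adjusted p = 6.52e-06).

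Among 73 genes of oxidative phosphorylation 2 were higher and 6 lower, with a median difference of -0.20, shares of 2.74% and 8.22%, and on the deposited values 15 were higher and 0 lower. ND-B12, a subunit of complex I, was lower with close replicates, 9.21, 9.16, 9.25 and 9.20 in CH-dmDys flies, against 10.97, 10.75, 11.10 and 10.84 in CH-WT flies (log2 difference -1.71, standard error 0.08, adjusted p = 8.29e-05), and COX8 of complex IV was lower (log2 difference -1.67, adjusted p = 0.0075). The higher ones, ND-51L1 (2.33, adjusted p = 0.00465) and ATPsynbetaL (2.08, adjusted p = 0.00293), are variant copies of subunit genes, with low levels. Of 69 genes of mitochondrial ribosomal proteins 16 (23.2%) were lower and 4 higher, led by mRpS14 with 5.64, 5.65, 5.55 and 5.22 in CH-dmDys flies, against 9.48, 9.81, 8.55 and 10.08 in CH-WT flies (log2 difference -3.97, standard error 0.34, adjusted p = 0.000824). On the deposited values 5 were lower and 29 higher, so that higher members outnumbered lower ones there, and mRpS14 was still called lower. Without CH-WT replicate 7, 16 were lower and 14 higher. A list of 42 genes of cytosolic ribosomal proteins and like-named relatives had 3 higher and 0 lower, and 17 higher and 0 lower on the deposited values. The 3 were RpLP0 and the relatives RpL24-like and RpLP0-like, the last called in 2 of 8 omissions. Of 40 proteasome genes 5 were higher and 0 lower (12.5% higher), with a median difference of 0.50, led by the testis forms Prosbeta5R2 (3.56, adjusted p = 0.0284, called in 3 of 8 omissions) and Prosalpha4T1 (2.64, adjusted p = 0.00281). Prosbeta5R2 was at 2.11 in CH-WT replicate 7, the fly low in testis transcripts. Without CH-dmDys replicate 6, 2 proteasome genes were higher, without CH-WT replicate 7, 6 were higher and 3 lower, and on the deposited values 18 were higher and 0 lower. Of 31 vacuolar ATPase genes 3 were lower, VhaM9.7-a the furthest (-2.10, adjusted p = 0.00572), and on the deposited values 5 were higher and 0 lower.

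The number of muscle transcripts called lower depended on the normalization. Of 28 muscle structure genes 10 (35.7%) were called lower and 0 higher, with a median difference of -0.87, whereas the deposited values gave a median of -0.03, with 2 lower and 3 higher. Centred arrays gave 16 lower and 0 higher. The flight muscle actin gene Act88F had 10.79, 10.83, 10.11 and 10.93 in CH-dmDys flies, against 14.70, 14.22, 11.96 and 14.52 in CH-WT flies (log2 difference -3.19, standard error 0.65, adjusted p = 0.0163, called in 6 of 8 omissions), and Msp300, which anchors nuclei and mitochondria in muscle, had 8.76, 8.76, 8.76 and 8.86 in CH-dmDys flies, against 12.19, 12.35, 10.08 and 12.83 in CH-WT flies (log2 difference -3.08, standard error 0.59, adjusted p = 0.0137). Both were also lower on the deposited values, with differences of -2.23 and -1.98. The actin gene Act79B (-1.64, adjusted p = 0.0069) and sls, the fly relative of titin (-1.37, adjusted p = 0.0104), had -0.85 and -0.37 on the deposited values. The median level of the 28 genes was 12.1 to 12.6 in CH-dmDys flies and 12.7 to 14 in CH-WT flies, the lowest of these in CH-WT replicate 6, without which 13 genes were lower. In normal air 8 were lower in dmDys flies, with a median difference of -0.64.

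A pair of storage protein genes were lower and several odorant-binding protein genes higher. Larval serum protein 2 (Lsp2), a storage protein of the fat body, had 3.59, 3.21, 3.87 and 3.89 in CH-dmDys flies, against 13.77, 13.13, 7.17 and 13.98 in CH-WT flies (log2 difference -8.37, standard error 1.59, adjusted p = 0.0129), and the probe set that the study's tables name Lsp1 had 3.81, 4.46, 4.89 and 3.17 in CH-dmDys flies, against 10.96, 11.01, 7.64 and 11.87 in CH-WT flies (log2 difference -6.28, standard error 0.98, adjusted p = 0.0065). In both, CH-WT replicate 6 was the lowest CH-WT fly. Of 15 fat body and storage genes, 3 were higher, Fst, GNBP3 and the lipid carrier gene Apoltp (3.13, adjusted p = 0.0419, called in 1 of 8 omissions, that of CH-WT replicate 7), and 1, Lsp2, lower. Of 47 odorant-binding protein genes 6 (12.8%) were higher and 0 lower. Leaving out 1 fly gave from 3 to 8 higher, most without CH-WT replicate 7, and up to 3 lower, without CH-WT replicate 6, and the deposited values gave 11 higher and 1 lower. Obp56a had 12.62, 12.54, 11.97 and 12.67 in CH-dmDys flies, against 5.50, 6.17, 8.42 and 8.41 in CH-WT flies (log2 difference 5.32, standard error 0.76, adjusted p = 0.00465) and Obp57a 12.39, 11.91, 11.63 and 12.47 in CH-dmDys flies, against 8.08, 8.08, 8.89 and 10.14 in CH-WT flies (log2 difference 3.30, standard error 0.51, adjusted p = 0.00632), and both were higher in dmDys flies in normal air too.

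Genes of the eye and of the male reproductive system differed in few members. The eye pigment transporter gene brown (bw) was near the floor in all CH-dmDys flies, with 2.82, 2.77, 2.78 and 2.74 in CH-dmDys flies, against 7.91, 7.18, 7.76 and 9.35 in CH-WT flies (log2 difference -5.28, standard error 0.45, adjusted p = 0.000807), and the same was seen in normal air, at 2.82 ± 0.10 in normoxic dmDys and 7.96 ± 1.06 in normoxic WT flies (SD, n = 4 each). Of 17 eye genes 4 were lower and 0 higher, with a median difference of -0.59. The light response genes rdgC (-1.43, adjusted p = 0.0135) and Galphaq (-1.10, adjusted p = 0.00599) had -0.29 and -0.27 on the deposited values. Of 38 testis genes 2 were higher, Prosalpha4T1 (2.64, adjusted p = 0.00281) and mia (1.99, adjusted p = 0.000873). The testis median difference of 2.63 rested on CH-WT replicate 7, and without it was 0.01, with 3 genes higher and 3 lower. Of 21 accessory gland and ejaculatory bulb genes 2 were higher, EbpIII (2.25, adjusted p = 0.00283) and Acp32CD (1.59, adjusted p = 0.0161, called in 6 of 8 omissions), and Acp62F was lower (-1.10, adjusted p = 0.0442, called in 1 of 8 omissions). Fst was the only call among 6 Turandot and Frost genes, and of 6 genes of phenylalanine and tyrosine breakdown Tat was higher and GstZ1 lower (log2 difference -3.23, adjusted p = 0.00621). In the lists not described above, which cover peptidoglycan recognition, mitosis, lipids, sugar transport, juvenile hormone and nuclear receptors, and autophagy, from 0 to 2 members were called in either direction, from 0 to 5 higher and 0 to 6 lower when 1 fly was left out, and from 4 to 9 higher and 0 to 3 lower on the deposited values. The furthest were PGRP-LF (3.06, adjusted p = 0.0323, called in 1 of 8 omissions), Mad1 (-2.24, adjusted p = 0.00922), SREBP (2.26, adjusted p = 0.00765), Glut1 (-2.23, adjusted p = 0.00403), Jhedup (3.73, adjusted p = 0.0223, in 2 of 8) and Atg17 (2.76, adjusted p = 0.0111).

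**Figure D4:**
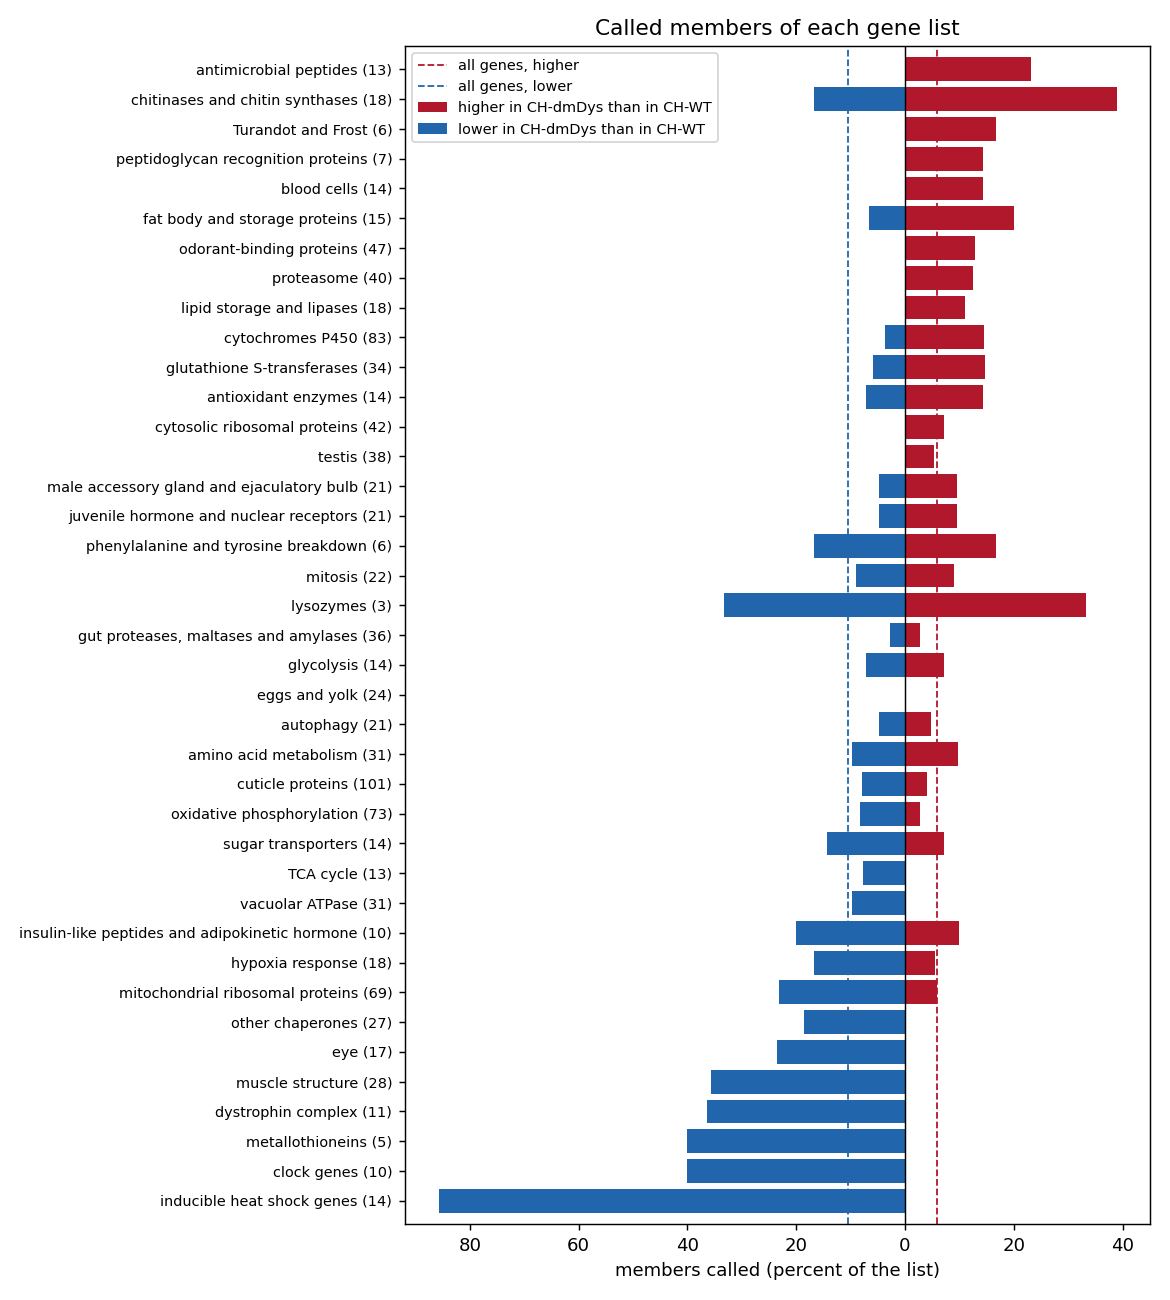
Share of the members of each of 39 gene lists that were called higher (red, to the right) or lower (blue, to the left) in CH-dmDys than in CH-WT flies, in percent of the list, with the number of members in brackets; dashed lines are the shares over all 11982 genes, 5.93% higher and 10.4% lower. Of the inducible heat shock probe sets 12 of 14 were lower, and that list counts every probe set where the others hold 1 a gene. Of 18 genes of chitinases, their relatives and chitin synthases 7 were higher and 3 lower.

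Most genotype differences seen under CH had the same sign in normal air. Of the 2318 probe sets called under CH, 2178 (94.0%) had a difference of the same sign between normoxic dmDys and normoxic WT flies, which share no fly with the CH groups. The same share over all probe sets was not computed, so the 94.0% has no background beside it. Both comparisons set dmDys against WT arrays that differed in deposited scale, and each WT group held a fly low in testis transcripts. The part of either in the shared signs was not tested. In normoxia 1529 probe sets (8.09%) were called, 613 higher and 916 lower. Of them 965 were called under CH in the same direction, which is 63.1% of the normoxic calls and 41.6% of the CH calls, and 15 were called in the opposite direction. A change of the genotype difference between normoxia and CH passed the interaction test in 103 probe sets (0.545%), 42 positive and 61 negative, and 1355 had an unadjusted p under 0.05. Leaving out normoxic WT replicate 5, in which the testis median was 2.16, gave 239 such calls, and leaving out CH-WT replicate 7 gave 220. Of these 103, 74 were called under CH, 48 of them without a call in normoxia.

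Outside the heat shock list, and among probe sets with 1 gene symbol that passed the interaction test, the largest negative changes were in Gpxl, Drsl4, the alpha-gamma element RNA and Gclm. Drsl4, another Drosomycin-like peptide gene, averaged 3.01 ± 0.32 in CH-dmDys and 2.15 ± 0.0063 in CH-WT flies and 10.42 ± 1.03 in normoxic dmDys and 2.15 ± 0.001 in normoxic WT flies (SD, n = 4 each), so that it was high only in normoxic dmDys flies. The change was -7.41, standard error 0.53, adjusted p = 6.92e-06. That of Gclm was -5.40, adjusted p = 0.0303, and that of the alpha-gamma element RNA -7.16, adjusted p = 0.000758. Among those that passed, the largest positive change was in CG13311, which did not differ by the test under CH (-0.21, adjusted p = 0.534) and averaged 3.03 ± 0.76 in normoxic dmDys and 10.78 ± 0.58 in normoxic WT flies; it was low only in normoxic dmDys flies and changed by 7.54, standard error 0.52, adjusted p = 4.78e-06. Pxt, a peroxidase gene, had 7.77, 7.74, 7.65 and 8.21 in CH-dmDys flies, against 2.12, 2.12, 2.12 and 2.12 in CH-WT flies (log2 difference 5.72, standard error 0.12, adjusted p = 1.71e-05) and changed by 7.08, adjusted p = 0.0348. Acbp6 (7.39, adjusted p = 0.0376), CG6839 (7.06, adjusted p = 0.00787), Cht9 and CG15358 (6.43, adjusted p = 0.0403) followed, each higher in CH-dmDys than in CH-WT flies.

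**Figure D5:**
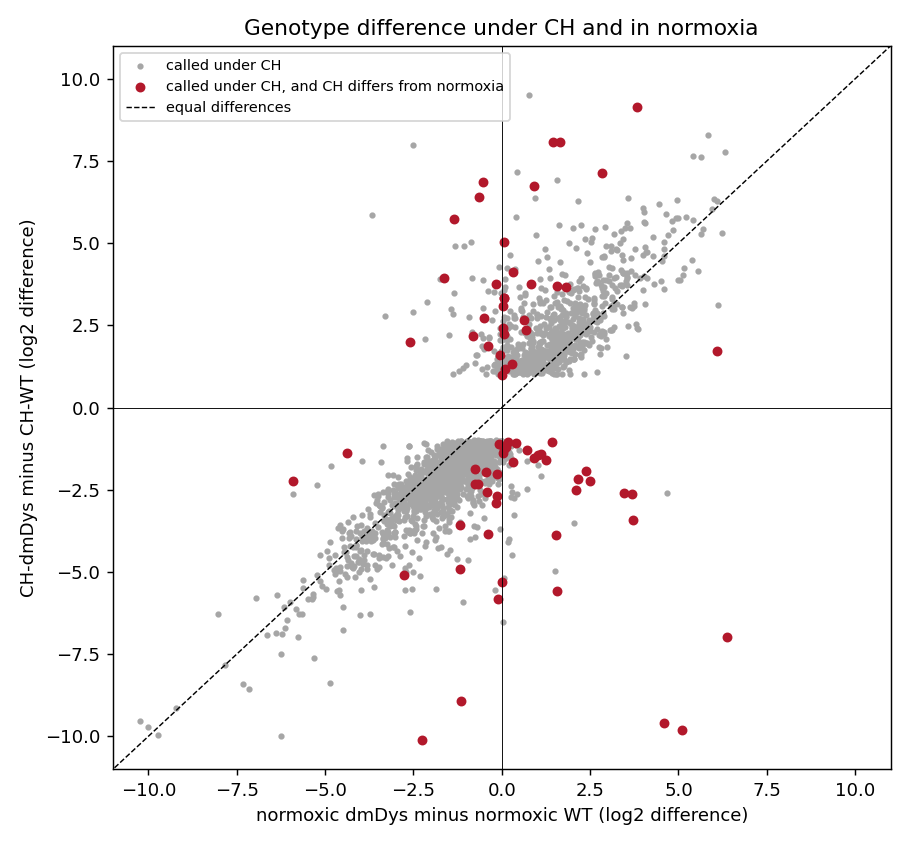
Log2 difference CH-dmDys minus CH-WT (vertical axis) against normoxic dmDys minus normoxic WT (horizontal axis) for the 2318 probe sets called under CH; red points are the 74 in which the 2 differences also differed by the interaction test, and the dashed line marks equal differences. Of all points 94.0% lie where both differences have the same sign, and the points at the lower right include the Hsp70 probe sets, Hsp68 and Hsp26.

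The last genes described are those that the study names from the overlap of its own gene lists, which it chose on these flies. Between CH-dmDys and CH-WT flies, Jhe, juvenile hormone esterase, and Obp99b did not differ by the test (-1.32, adjusted p = 0.596 for Jhe and -3.28, adjusted p = 0.301 for Obp99b). Their levels varied widely among CH-WT flies and were lowest in replicate 6, with 7.70, 6.30, 6.52 and 7.29 in CH-dmDys and 8.97, 9.87, 3.47 and 10.78 in CH-WT flies for Jhe and 7.16, 5.84, 6.46 and 7.40 in CH-dmDys and 10.47, 12.22, 4.34 and 12.93 in CH-WT flies for Obp99b. The galactokinase gene Galk (0.70, adjusted p = 0.182), CG17026 (-0.66, adjusted p = 0.435) and MFS14 (0.33, adjusted p = 0.343) did not pass either. CG32024 was lower (-2.24, adjusted p = 0.012), the alkaline phosphatase gene Alp2 higher (1.57, adjusted p = 0.0132) and the beta carbonic anhydrase gene CAHbeta lower (-1.94, adjusted p = 0.0218, called in 3 of 8 omissions), and for CAHbeta the genotype difference under CH minus that in normoxia was -4.34, adjusted p = 0.00612. The 5' control probe set of Act5C was higher (log2 difference 4.20, adjusted p = 0.00665). It is 1 of the probe sets behind the 3' to 5' difference given above.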

How the data were processed

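Whole single flies (16, 4 per group) were hybridized to the Affymetrix Drosophila Genome 2.0 array after NuGEN amplification of RNA that was purified per the labels with an RNeasy micro kit. The authors deposited 1 table of linear intensity per probe set, made with GCRMA per the submitters' processing notes, on a scale that differs between dmDys and WT arrays. The deposited intensities were taken to log2 and quantile normalized over all 16 arrays. After 45 hybridization controls were left out, the 8 arrays under CH were compared over 18907 probe sets by lmFit and eBayes (limma 3.58.1, R 4.3.3), with Benjamini-Hochberg adjustment over all of them. Probe sets with an adjusted p under 0.05 whose log2 difference was 1 or more in size were called. The change between normoxia and CH was tested as an interaction over 16 arrays. Gene symbols came from the platform annotation (13646 probe sets with 1 symbol, 402 with several, 4859 with none), and the brightest probe set stood for each of 11982 genes. In the list of inducible heat shock genes every probe set was counted, including sets shared by several genes. The code was tested on simulated data with known changes.

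The members and gene lists were chosen with earlier results of these data known. The genes named are the 12 largest higher and 12 largest lower calls with groups apart, up to 4 called members a list, Dys, the genes the study names from its own overlap, and the 6 largest interaction differences in each direction. Further list members were named after their values were seen. Each array is 1 fly, and nothing in the sources says that flies came from separate vials, so p-values measure only the spread between these flies. Precision was limited by 4 arrays a group. Alternatives were the deposited values, other normalizations, 1 fit of all arrays, a mean-variance trend, array weights, a floor, only probe sets brighter than the median, no cross-hybridizing probe sets, a replicate block, SAM, no fold threshold and leaving out each fly. The genome was not used here, and neither were sequences.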

Additional observations from a re-analysis of the deposited data

Results flagged for a closer look

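In 112 groups of 4 flies tested for a fly far from the rest, 15 had such a fly, and chance alone gives it in about 5% of groups. Among CH-dmDys flies, replicate 6 had the outlying level of Cpr67Fb (11.2) and replicate 8 that of Alp2 (11.4). CH-WT replicate 6 stood below the other CH-WT flies in Vajk3 (5.98), Vajk2 (5.65), Cpr62Bc (4.39), Cht7 (3.77) and the storage protein gene Lsp2 (7.18), and above them in Cht9 (3.38), in log2 intensity. CH-WT replicate 7 stood apart in the testis median (2.21), the blood cell median (7.94), cDIP (4.85) and the 3' minus 5' level of control transcripts (4.82). It did so by less than 0.05 in the egg median (2.13) and in a pair of Dys probe sets at the floor (2.12 each).

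The genotype difference under CH departed from that in normoxia, by the interaction test, negatively in probe sets that included those of Gpxl (-7.79), Drsl4 (-7.41), the RNA lncRNA:alphagamma-element:CR32865 (-7.16), Hsp68 (-7.14), Hsp26 (-6.30) and Gclm (-5.40). It departed positively in probe sets that included those of CG13311 (7.54), Acbp6 (7.39), Pxt (7.08), CG6839 (7.06), Cht9 (6.61) and CG15358 (6.43), all on the log2 scale.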

How the results depend on the processing

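Against 853 higher and 1465 lower probe sets, the deposited values gave 3270 and 932, centred arrays gave 10918 lower, array weights gave 1906 higher, no fold threshold gave 1708 and 2723, SAM gave 278 and 553, and the 3' to 5' level as a covariate, added after the data were seen, gave 1823 and 3206. Leaving out 1 fly gave from 490 (without CH-dmDys replicate 6) to 1780 (without CH-WT replicate 7) higher and from 854 to 1720 lower calls. With the replicate block 1 probe set was higher and 3 were lower, on 3 shared numbers. The deviations of same-numbered flies correlated at -0.107, 0.119 and -0.124. With only 3 such pairs these values cannot show whether same-numbered flies shared a batch. The 103 interaction calls were 169 on the deposited values, 664 when both flies low in testis transcripts (replicate 7 of CH-WT and 5 of normoxic WT) were left out together, and from 74 to 239 without 1 fly (220 without CH-WT replicate 7, 239 without normoxic WT replicate 5). The 3' minus 5' difference of -2.51 ranged from -3.03 to -2.31 without 1 fly, and its exact permutation p was 0.0571 without any 1 CH-dmDys fly and 0.0286 without any 1 CH-WT fly.

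Of 153 named probe sets, 123 kept their direction and side of the threshold on the deposited values, 150 in 1 fit of all arrays, 122 with a floor at a log2 of 4, and between 106 and 144 without 1 fly. The difference of sqa changed sign on the deposited values (0.0445, adjusted p = 0.898). The cause was not tested for any of these changes. Probe sets near the floor carry only a bound on how low a transcript was.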
